A study of Mus musculus with 8 samples.

Results

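The genes described here are 10 markers of meningeal fibroblasts, the cells of the membranes that wrap the brain. They are Foxc1, Foxc2, Tbx18, Dcn, Lum, Ogn, Slc6a13, Ptgds, Pdgfra and Zic1, and their rows were taken by symbol from the deposited table of gene counts, which lists 16397 genes. All 10 were in the table, and all 10 passed the count filter that left 13707 protein-coding genes for testing. The samples were hippocampi of C57Bl/6J mouse embryos of both sexes at embryonic day 15.5, with 1 library for each of 4 IUGR (intrauterine growth restriction) and 4 sham samples. In the IUGR group the pregnant dam carried a micro-osmotic pump with U-46619, an analog of thromboxane A2 that raises maternal blood pressure, from e12.5. In the sham group the dam carried a pump with vehicle from the same day, so the surgery was common to both groups. The 4 IUGR samples are named T1-1, T1-3, T1-4 and T1-5, whereas the sham samples are S1-4, S1-6, S3-1 and S3-4. What the prefixes T1, S1 and S3 stand for is not stated, and the effect of the prefix T1 and that of IUGR cannot be told apart. No source used here says which samples came from different litters, so the p values below measure only the spread between these samples, which may be technical. The sources also do not say whether the meninges were taken off the tissue.

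The meninges form 3 layers, with the pia on the brain surface, the arachnoid above it and the dura outermost. Over the forebrain their fibroblasts come mainly from the neural crest, and they lay down the basement membrane and collagen on which the brain surface rests. In the embryo they also release retinoic acid, Cxcl12 and bone morphogenetic proteins to the tissue below. The hippocampus lies against this sheath at the medial edge of the hemisphere, next to the cortical hem and the choroid plexus, and the pial surface of the dentate gyrus is part of the route that migrating precursors follow.

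Libraries held between 11212632 and 16672463 counts on genes. CPM below are counts per 1000000 counts after TMM normalization, edgeR's scaling for library composition. The labelled tissue was checked with lists of marker genes. Genes of hippocampal identity (Zbtb20, Emx2, Lhx2, Prox1 and Neurod6) summed to between 832 and 994 CPM in IUGR and between 736 and 1447 CPM in sham, and markers of neurons and radial glia were high in all samples, with sums of at least 3491 and 2913 CPM. Some libraries stood apart. T1-3 had the highest level of most meningeal markers and T1-4 the lowest, and T1-1 and T1-4 were lowest in markers of choroid plexus epithelium, whose 12 tested genes summed to 57.8 and 46.8 CPM against 309.9 (T1-5), 360.2 (T1-3) and 1014 to 1485 in sham. The estimates of the markers and the medians of most lists are therefore given with and without T1-3.

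The 300 bases around the transcription start are shown for 4 of the markers, from RefSeq on GRCm38.p6 and read on the strand of the gene, with 250 bases before the start and 50 from it onward. Foxc1 and Tbx18 were chosen as transcription factors that followed the pattern shared by most markers, and Ogn and Ptgds as the pair whose estimate was lower in IUGR. Capitals mark the letters of 4 motifs searched on both strands, namely the TATA box with the letters TATAAA, the CCAAT box with the letters CCAAT, the GC box with the letters GGGCGG and a forkhead core with the letters TAAACA, each also sought as its reverse complement. RefSeq windows were found for 7 of the 10 markers, and Foxc2, Dcn and Lum are named only. The Foxc1 window is chr13:31806396-31806695 on the plus strand, the Tbx18 window chr9:87731211-87731510 on the minus strand, the Ogn window chr13:49607765-49608064 on the plus strand and the Ptgds window chr2:25469700-25469999 on the minus strand.
Foxc1: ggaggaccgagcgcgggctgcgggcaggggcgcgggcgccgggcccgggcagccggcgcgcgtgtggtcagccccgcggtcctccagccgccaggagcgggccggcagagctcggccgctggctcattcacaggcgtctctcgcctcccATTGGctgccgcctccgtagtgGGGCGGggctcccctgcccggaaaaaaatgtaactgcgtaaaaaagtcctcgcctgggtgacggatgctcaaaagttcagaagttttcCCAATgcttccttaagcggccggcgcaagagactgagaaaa
Tbx18: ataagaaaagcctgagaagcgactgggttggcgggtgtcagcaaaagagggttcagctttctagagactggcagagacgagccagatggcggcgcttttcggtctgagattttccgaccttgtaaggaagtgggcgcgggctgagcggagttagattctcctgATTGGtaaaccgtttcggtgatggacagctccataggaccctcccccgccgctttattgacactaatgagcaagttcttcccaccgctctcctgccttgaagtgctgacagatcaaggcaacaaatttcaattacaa
Ogn: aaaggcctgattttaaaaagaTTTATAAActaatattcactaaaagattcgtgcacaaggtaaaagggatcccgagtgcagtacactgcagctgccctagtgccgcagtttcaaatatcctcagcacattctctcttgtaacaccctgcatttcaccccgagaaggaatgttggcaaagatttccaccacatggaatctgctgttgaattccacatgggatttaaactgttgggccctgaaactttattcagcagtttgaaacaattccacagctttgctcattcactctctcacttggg
Ptgds: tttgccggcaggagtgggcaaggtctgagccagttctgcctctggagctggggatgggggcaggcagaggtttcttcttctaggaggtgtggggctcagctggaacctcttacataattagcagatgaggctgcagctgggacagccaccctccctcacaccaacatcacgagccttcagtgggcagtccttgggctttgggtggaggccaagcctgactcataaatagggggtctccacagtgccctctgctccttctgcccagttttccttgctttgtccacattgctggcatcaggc

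The window of Foxc1 was the richest in G and C, at 67.3%, against 51.7% for Tbx18, 42.3% for Ogn, 57.7% for Ptgds and a median of 52.7% over all 32851 windows. With positions counted from the start and negative before it, Foxc1 held a CCAAT box on the opposite strand at -101, a GC box at -79 and a CCAAT box at 9. Tbx18 held a CCAAT box on the opposite strand at -87. Ogn held the TATA box letters at -227, far from where a TATA box usually lies, and they overlap the same letters on the opposite strand. The Ptgds window held none of the 4 motifs, and no window of the 7 markers held the forkhead core. Of all windows, 13.6% held TATAAA, 37.4% CCAAT, 35.7% GGGCGG and 13.4% TAAACA, on either strand. These matches describe letters only.

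Of the 10 markers, 1 was called, and it was Zic1. Calls required an adjusted p (Benjamini-Hochberg over all tested genes) no greater than 0.05 in edgeR's quasi-likelihood test, and an estimate at or beyond 1 on the log2 scale, up or down. Across all tested genes, 1.46% were called in either direction and 0.102% were called higher in IUGR. The estimated log2 fold change (IUGR minus sham) was above 0 for 8 markers and below 0 for Ogn and Ptgds, with a median of 1.10 against -0.02 over all tested genes. In limma-voom, which fits mean log values, the median was 0.03, and Lum and Pdgfra lay below 0. Of the 10, 7 had an estimate of at least 1 in size, against 6.49% of all tested genes, yet the errors were large, with a median standard error of 0.72 against 0.19. At an unadjusted p under 0.05 lay 2 of the 10, Ogn and Zic1, against 11.1% of all tested genes. Without T1-3 the median over the markers was -0.32, so the direction of the median rested on 1 library. Without T1-4, the lowest IUGR sample of most markers, it was 1.38. In that fit 0 of the 10 were called, and 5 were at an unadjusted p under 0.05 (edgeR), against 1585 of the 13707 tested genes. Bulk samples cannot tell fewer cells of a type from less RNA per cell, and this holds for every level given here.

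The spread of the markers among the 4 IUGR samples was wide. The standard deviation (SD) of log2 CPM had a median over the markers of 1.78 in IUGR (1.11 without T1-3) and 0.49 in sham, whereas over all tested genes both medians were 0.26. It was larger in IUGR for 10 of the 10 markers, against 52.6% of all tested genes. An SD of 1 or more in IUGR was reached by 9 markers, all but Zic1, and by 4.7% of all tested genes. The same samples made up the extremes each time. T1-3 was the highest IUGR sample for all 10 markers and the highest of the 8 samples for 9, all but Ogn. T1-4 was the lowest IUGR sample for 9, all but Ptgds, and the lowest of the 8 samples for 7. The order T1-3, T1-5, T1-1, T1-4 held for 8 markers, with Ptgds and Zic1 as exceptions, and for 8.65% of all tested genes. This order was noticed in the values and is a description. The summed CPM of the 9 markers other than Zic1 was 808 (T1-3), 285 (T1-5), 90.2 (T1-1) and 46.9 (T1-4), which is 317%, 112%, 35.4% and 18.4% of the sham mean. The sham sums were 282 (S1-6), 161 (S3-4), 296 (S1-4) and 282 (S3-1). The IUGR extremes thus differed 17.3-fold, or 6.09-fold without T1-3, and the sham extremes 1.84-fold.

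**Figure D1:**
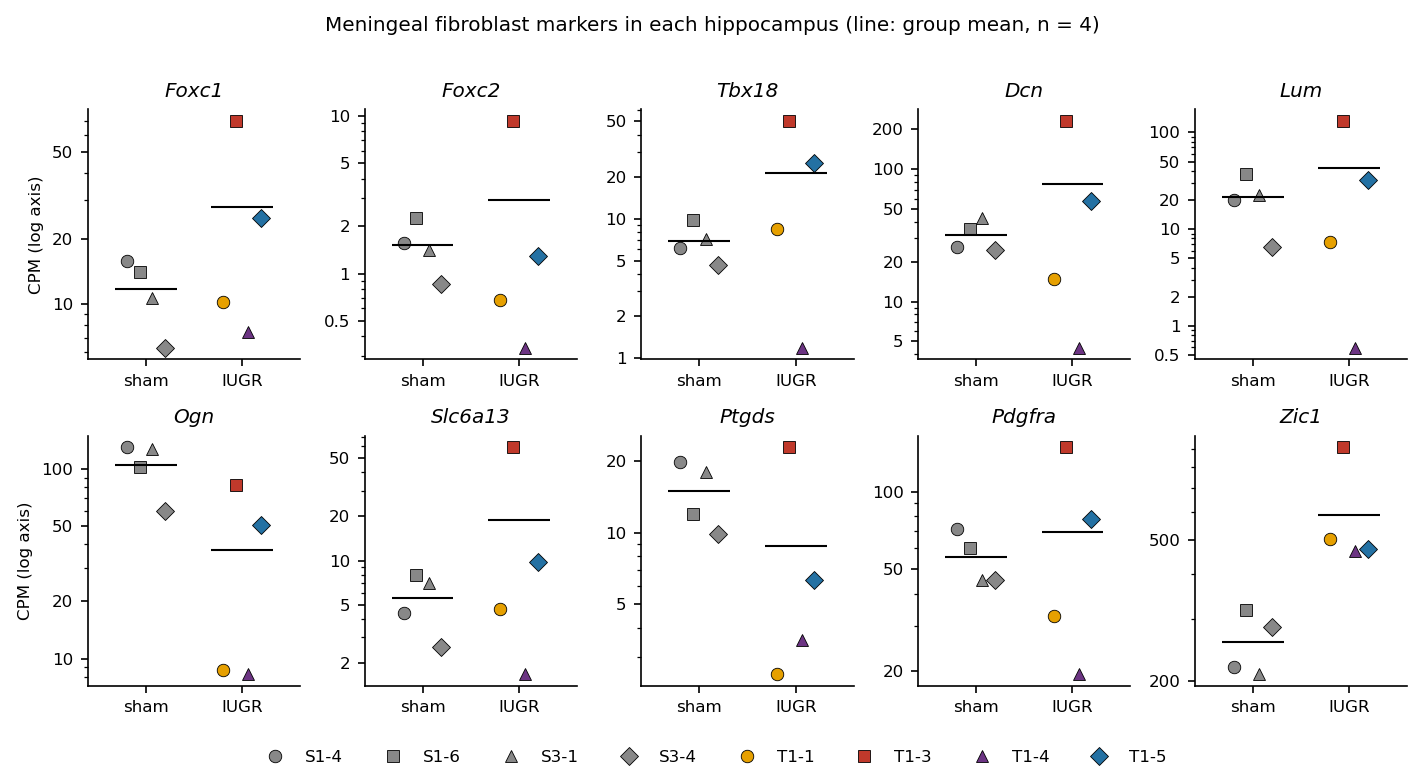
CPM of each of the 10 markers (log axis) in the 4 sham (grey) and 4 IUGR (colored) hippocampi, with a line at the group mean. T1-3 is the highest IUGR point in every panel, and the groups overlap in every panel except that of Zic1.

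Per length of exon, which allows genes to be compared, the sham level was highest for Zic1 (45.2 ± 9.17 CPM per kb, SD, n = 4) and Ogn (41.0 ± 12.6), whose sham ranges overlapped. Ptgds (9.04 ± 2.87), Lum (8.78 ± 5.07), Pdgfra (5.54 ± 1.29) and Dcn (5.49 ± 1.47) came next, and neighbors in this order did not differ beyond their spread. Foxc1 (2.001 ± 0.718), Slc6a13 (1.90 ± 0.859) and Tbx18 (1.47 ± 0.458) overlapped one another, below every sham sample of Dcn. Foxc2 was lowest, at 0.559 ± 0.211, and its highest sham sample (0.826) was below the lowest of Tbx18 (0.982). The IUGR means were again highest for Zic1, at 103 ± 38.0 CPM per kb, whereas Ogn was at 14.6 ± 14.0, below Lum at 17.6 ± 24.9 and beside Dcn at 13.2 ± 18.2.

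Transcription factors of the forkhead, T-box and Zic families come first. Foxc1, which the meninges need in order to form over the forebrain (chr13:31806633-31812476, plus strand, GRCm38), was at 69.9 CPM (T1-3), 24.9 (T1-5), 10.2 (T1-1) and 7.42 (T1-4), against 14.0 (S1-6), 6.27 (S3-4), 15.8 (S1-4) and 10.7 (S3-1). Both T1-3 and T1-5 were above every sham sample, while T1-1 and T1-4 lay within the sham range. The log2 fold change was 1.27 ± 0.62 (SE), with an adjusted p of 0.517 by edgeR, and it was 0.31 without T1-3. Among the promoter windows shown, that of Foxc1 is the one with 3 motif matches.

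Foxc2, the close relative of Foxc1 (chr8:121116171-121118895, plus strand), was the least abundant marker, with a mean of 31.9 counts per sample and only 4 counts in T1-4. Its level was 9.34 CPM (T1-3), 1.29 (T1-5), 0.674 (T1-1) and 0.337 (T1-4), and the sham samples were at 2.25 (S1-6), 0.855 (S3-4), 1.57 (S1-4) and 1.41 (S3-1). Of the IUGR samples, T1-3 alone lay above the sham range, and T1-1 and T1-4 lay below it. The estimate of 0.97 ± 0.86 (adjusted p = 0.947, edgeR) became -0.93 without T1-3, and it was 0.003 in limma-voom. The gene model Gm20388 overlaps Foxc2 on the same strand without sharing an exon.

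Tbx18, a T-box factor of meningeal and mural cells (chr9:87702800-87731260, minus strand), was at 50.4 CPM (T1-3) and 24.9 (T1-5), at 8.39 (T1-1) and at 1.18 (T1-4). Sham samples lay close together, at 9.78 (S1-6), 4.63 (S3-4), 6.19 (S1-4) and 7.14 (S3-1). The IUGR samples therefore straddled sham on both sides, 42.7-fold apart against 2.11-fold in sham. Its log2 fold change was 1.62 ± 0.78 (adjusted p = 0.501, edgeR) and 0.75 without T1-3, so the estimate stayed above 0 when that library was left out, and it was 0.80 in limma-voom.

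Zic1, a zinc finger factor of the meninges that neural cells of the dorsal midline also make (chr9:91358058-91365810, minus strand), had a pattern of its own among the markers. It stood at 911 CPM (T1-3), 470 (T1-5), 504 (T1-1) and 465 (T1-4), against 318 (S1-6), 284 (S3-4), 219 (S1-4) and 209 (S3-1). All 4 IUGR samples were above all 4 sham samples, a separation seen with IUGR higher in 2.08% of all tested genes and in either direction in 7.14%. Zic1 rose 2.28-fold (log2 fold change 1.19 ± 0.24, adjusted p = 0.0403, edgeR), and its other 3 IUGR samples (T1-1, T1-5, T1-4) did not follow the shared order. Without T1-3 its log2 fold change was 0.93 with an adjusted p of 0.0341, so that the estimate missed the fold criterion, and over the 8 fits that leave out 1 sample the adjusted p ran from 0.0341 to 0.133. The call held in 1 of those 8, that without T1-5.

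Of the Zic family, 4 genes are described, and 2 of them were called, against 0.102% of all tested genes called higher. Zic4, which lies head to head with Zic1 with overlapping exons on the other strand, also rose (1.08 ± 0.22, adjusted p = 0.0403, edgeR). With 1 sample left out its adjusted p ran from 0.0299 to 0.135 and its call held in 2 of the 8 fits, those without T1-5 and without T1-4, while without T1-3 its log2 fold change was 0.85. The strand setting of the counting is not given in the sources used here, so reads of the overlap of Zic1 and Zic4 cannot be told apart. Zic2 and Zic5 were both at 0.49 (adjusted p of 0.800 and 0.749), and at 0.08 and 0.20 without T1-3. T1-3 was the highest of the 8 samples for each of the 4, and the median over these 4 was 0.78, or 0.52 without T1-3. After T1-3 the IUGR samples ran in the order T1-1, T1-5, T1-4 for each of the 4, so Zic1 shared its order with its family. Cajal-Retzius cells of the hem and septum also express Zic genes, and the list of 6 markers of these cells (Reln, Trp73, Calb2, Nhlh2, Ebf3, Lhx1) had 0 called and a median log2 fold change of -0.20 (-0.44 without T1-3), with sums of 491 to 1290 CPM (IUGR) against 328 to 1008 (sham).

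Dcn, Lum and Ogn encode decorin, lumican and osteoglycin, small leucine-rich proteoglycans that bind collagen fibrils in the matrix. Dcn (chr10:97479609-97518143, plus strand) reached 233 CPM (T1-3) and 57.3 (T1-5) but 14.8 (T1-1) and 4.47 (T1-4), with 35.1 (S1-6), 24.5 (S3-4), 25.8 (S1-4) and 42.8 (S3-1). Again T1-3 and T1-5 were above every sham sample, and T1-1 and T1-4 were below every one. The difference in means, 1.27 ± 0.88 on the log2 scale (adjusted p = 0.807, edgeR), became -0.31 without T1-3 and was 0.05 in limma-voom.

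Lum, the next gene along on the same strand (chr10:97565128-97572703), had the widest spread of the 10, at 132 CPM (T1-3), 32.5 (T1-5), 7.34 (T1-1) and 0.590 (T1-4), a 224-fold range. It was also the marker that varied most in sham, at 36.8 (S1-6), 6.56 (S3-4), 19.9 (S1-4) and 22.7 (S3-1), a 5.61-fold range. T1-3 alone was above the sham range and T1-4 alone below it. The estimate was 1.01 ± 1.04 (adjusted p = 0.991, edgeR), and it was -0.65 without T1-3. In limma-voom it was -0.40.

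Ogn (chr13:49608046-49624501, plus strand) went the other way. It was at 103 CPM (S1-6), 60.4 (S3-4), 131 (S1-4) and 127 (S3-1), against 82.4 (T1-3), 50.4 (T1-5), 8.69 (T1-1) and 8.26 (T1-4). Of the IUGR samples, 3 were below every sham sample, and T1-3 was above S3-4 only. The log2 fold change was -1.49 ± 0.65 with an unadjusted p of 0.0452 and an adjusted p of 0.428 (edgeR), and without T1-3 it was -2.20 with an adjusted p of 0.147. It did not pass the test in either fit. The order of the IUGR samples was the shared one, on a lower level. The gene overlaps Cenpp on the other strand without a shared exon.

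Of the 14 small leucine-rich proteoglycans listed, 10 were tested and 0 were called, at a median log2 fold change of -0.76, or -1.15 without T1-3. Estimates were above 0 for Dcn, Lum, Bgn and Aspn and below 0 for the other 6, but without T1-3 those of Dcn and Lum were below 0 as well and those of Bgn and Aspn came to 0.05 and 0.07. The largest above 0 was that of Dcn, and the largest below 0 was that of Podn (podocan), at -2.07 ± 0.51 (adjusted p = 0.0865, edgeR), where all IUGR samples were below all sham samples on few counts (mean 21.6). Ecm2 (-1.29, adjusted p = 0.128) and Optc (-0.98, adjusted p = 0.252) also did not overlap between groups, with IUGR lower, as in 5.06% of all tested genes. Without T1-5 edgeR called Ecm2 (-1.63, adjusted p = 0.0477), in a fit that called 298 of the 13707 tested genes. With any other sample left out, 0 of the 10 were called. At an unadjusted p under 0.05, edgeR passed 5 of the 10 against 11.1% of all tested genes, while DESeq2's Wald test called Podn and Ecm2 lower (3.1% of all tested genes were called by it) and limma-voom called 0.

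Slc6a13, a GABA transporter (GAT2) found in leptomeningeal cells (chr6:121300227-121337733, plus strand), was at 59.3 CPM (T1-3), 9.73 (T1-5), 4.72 (T1-1) and 1.69 (T1-4). In sham it was at 8.05 (S1-6), 2.57 (S3-4), 4.44 (S1-4) and 7.06 (S3-1). T1-3 was far above all others, T1-5 just above sham, T1-1 inside and T1-4 below. Its log2 fold change was the largest of the markers, 1.78 ± 0.89 (adjusted p = 0.538, edgeR), and came to -0.01 without T1-3 and to 0.86 in limma-voom. Of other GABA transporters, Slc6a11 of astrocytes was at 0.07 ± 0.34 (-0.23 without T1-3), and Slc6a12 was below the count filter.

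Ptgds, the lipocalin-type prostaglandin D synthase that arachnoid cells and choroid plexus epithelium secrete into the cerebrospinal fluid (chr2:25466709-25470046, minus strand), was at 12.03 CPM (S1-6), 9.84 (S3-4), 19.8 (S1-4) and 18.0 (S3-1). The IUGR samples were at 22.9 (T1-3), 6.31 (T1-5), 2.55 (T1-1) and 3.54 (T1-4). T1-3 was above every sham sample and the other 3 were below every one. The log2 fold change was -0.74 ± 0.60 (adjusted p = 0.902, edgeR). Without T1-3 it was -1.81 ± 0.36 with an adjusted p of 0.0441, and Ptgds was then the only marker called, in place of Zic1. That fit called 211 of the 13707 tested genes, 208 of them lower. T1-3 was left out because it was high in these markers, Ptgds among them, so this call is a description. Of the prostaglandin D pathway, Ptgs1 (cyclooxygenase-1) was at -0.60 ± 0.40 and Hpgds, the other synthase, at 0.08 ± 0.32 (-0.90 and -0.17 without T1-3), neither past the test, and Ptgs2, Ptgdr and Ptgdr2 were below the count filter.

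Pdgfra, the PDGF receptor of fibroblasts and of oligodendrocyte precursors (chr5:75152292-75198215, plus strand), was at 149 CPM (T1-3), 78.0 (T1-5), 32.8 (T1-1) and 19.4 (T1-4), against 60.5 (S1-6), 45.1 (S3-4), 71.6 (S1-4) and 45.1 (S3-1). T1-3 and T1-5 were above sham and T1-1 and T1-4 below it, as for Dcn. Its estimate was 0.33 ± 0.51 (adjusted p = 1.00, edgeR) and -0.33 without T1-3, and limma-voom gave -0.03. The list of oligodendrocyte precursor markers (Olig1, Olig2, Sox10, Cspg4, Gpr17) had 0 of 5 called and held the shared order of IUGR samples in 1 gene. All 5 estimates were above 0, with a median of 0.48 (0.56 without T1-3), and T1-3 was the highest of the 8 samples for 4 of them, all but Olig2. The sums were 85.4 CPM (T1-4, of which Olig2 made up 58.1), 75.5 (T1-3), 72.1 (T1-1) and 57.0 (T1-5), against 28.6 to 68.3 in sham. Among PDGF ligands, Pdgfa was at -0.93 ± 0.26 (adjusted p = 0.122, edgeR). Its groups did not overlap, with IUGR lower, as in 5.06% of all tested genes. Pdgfc was at -0.69 ± 0.26, Pdgfd at -0.96 ± 0.48 and Pdgfb at -0.12 ± 0.26, and the mural receptor Pdgfrb was at 0.04 ± 0.27 (-0.21 without T1-3). None of these passed the test, nor did DESeq2 or limma-voom call any, and 2 of the 6 PDGF genes (Pdgfa, Pdgfc) had an unadjusted p under 0.05, against 11.1% of all tested genes.

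**Figure D2:**
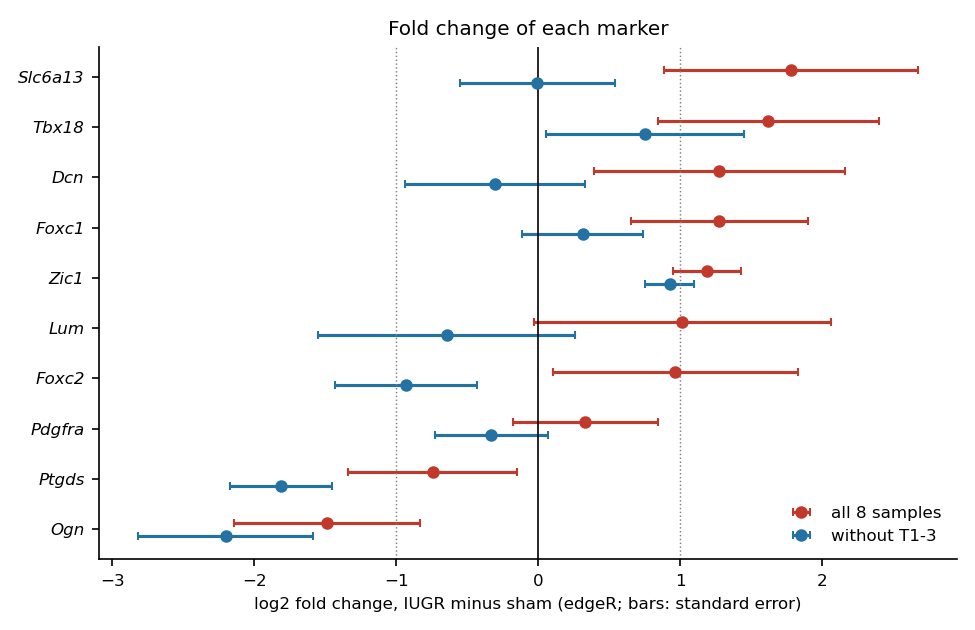
Log2 fold change of each marker (IUGR minus sham, edgeR) with its standard error, over all 8 samples (red) and without T1-3 (blue); dotted lines mark 1 and -1. Without T1-3, 5 estimates move from above 0 to below it (Dcn, Lum, Foxc2, Pdgfra and, at -0.01, Slc6a13), while Ogn and Ptgds move further below 0.

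How alike the markers were was described by the Pearson correlation, over the 8 samples, between the log2 CPM of a gene and the mean of the 10 standardized markers, to which each marker itself contributes. It was 0.98 for Dcn, 0.97 for Foxc2 and Pdgfra, 0.96 for Slc6a13, 0.95 for Lum, 0.92 for Tbx18 and 0.91 for Foxc1. It was lower for Ptgds (0.71), Ogn (0.65) and Zic1 (0.37). All points share the same 8 libraries, and T1-3 and T1-4 lie at the ends of the scale. Outside the 10, the most alike genes were Ptgfr (0.99), Gjb6, Ms4a7 and Myof (0.98 each), then Aspn, Sepp1, Fmo1, Foxd1, Enpep and Tnxb (0.97 each). Gjb6, the gap junction gene connexin 30, shows the range, at 25.0 CPM (T1-3), 4.79 (T1-5), 1.27 (T1-1) and 0.590 (T1-4), with 1.07 to 2.60 in sham.

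**Figure D3:**
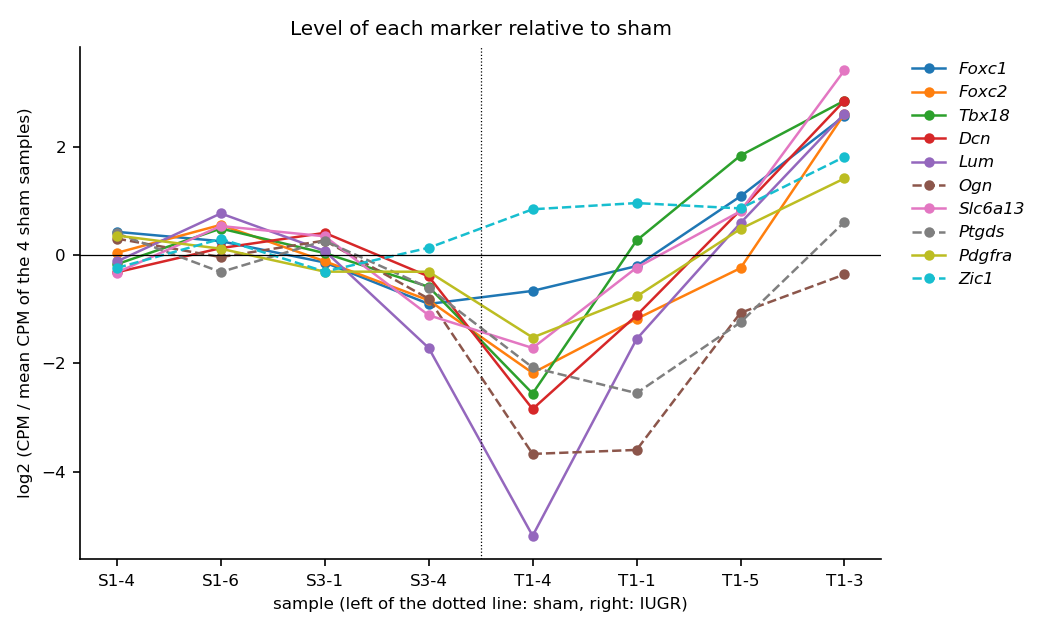
Level of each marker in each sample as log2 of its CPM over the mean CPM of the 4 sham samples, with IUGR samples placed from the lowest to the highest. Solid lines (7 markers) run from below the sham mean in T1-4 to above it in T1-3, with Foxc1, Tbx18 and Slc6a13 near it in T1-1. Dashed lines mark Ogn, Ptgds and Zic1. Ogn stays below the sham mean in every IUGR sample and Zic1 above it, and Ptgds exceeds it in T1-3 alone.

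Ratios within a sample show where the markers parted. They were chosen after the values were seen and carry no test. The level of Ogn relative to Dcn in CPM was 0.354 (T1-3), 0.880 (T1-5), 0.586 (T1-1) and 1.85 (T1-4), against 2.93 (S1-6), 2.47 (S3-4), 5.06 (S1-4) and 2.98 (S3-1), so the groups did not overlap. The ratio of Ptgds to Dcn was 0.0982 (T1-3), 0.110 (T1-5) and 0.172 (T1-1), all below the sham range of 0.342 to 0.767, but it was 0.792 (T1-4). The ratio of Lum to Dcn overlapped between the groups, at 0.568 in both T1-3 and T1-5, 0.495 (T1-1) and 0.132 (T1-4) against 0.268 to 1.05 in sham. The ratio of Zic1 to Dcn was 3.91 (T1-3), 8.21 (T1-5), 33.9 (T1-1) and 104 (T1-4) and lay between 4.89 and 11.6 in sham. Across the IUGR samples Dcn varied 52.1-fold and Zic1 1.96-fold.

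**Figure D4:**
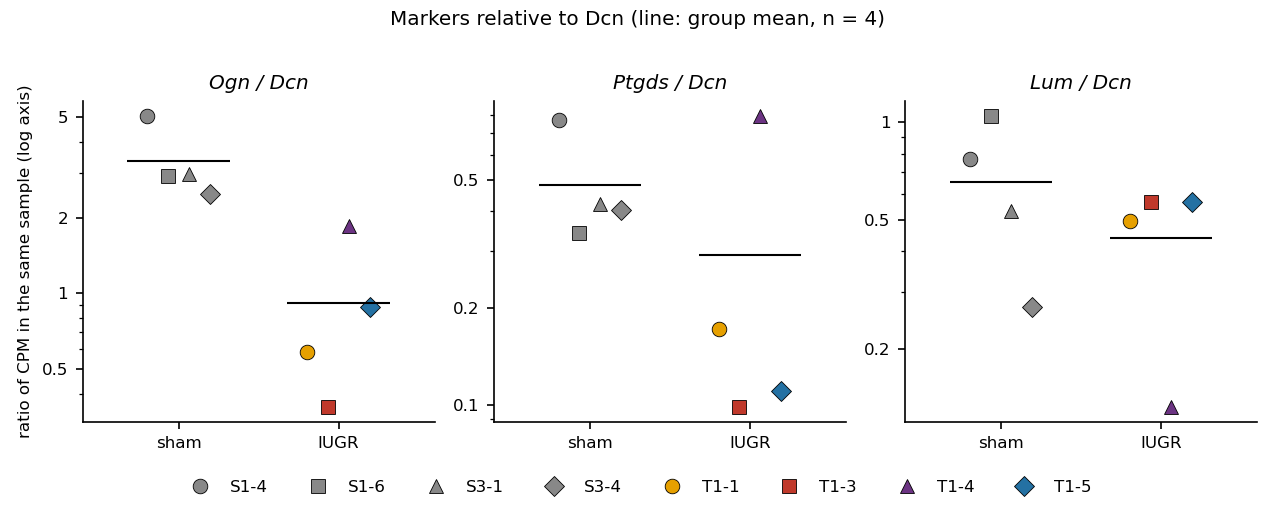
Ratio of the CPM of Ogn, Ptgds and Lum to that of Dcn in the same sample (log axis), with a line at the group mean. The Ogn ratio separates the groups, at most 1.85 in IUGR and at least 2.47 in sham, whereas the other 2 ratios overlap.

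Further meningeal genes were listed by layer. The 16 other fibroblast genes (collagens Col1a1, Col1a2, Col3a1 and Col5a2, the factors Twist1, Foxd1 and Prrx1, and others) had 0 called and a median log2 fold change of 0.54, or -0.33 without T1-3. The shared order of IUGR samples held for 13 of the 16, and T1-3 was the highest of the 8 samples for 15. Col3a1 had the largest estimate (1.63, adjusted p = 0.576, edgeR, and 0.25 without T1-3), with 1310 CPM (T1-3), 310 (T1-5), 187 (T1-1) and 22.5 (T1-4) against 89.1 to 173 in sham, and Aebp1 the lowest (-0.83, adjusted p = 0.987, and -2.19 without T1-3).

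Arachnoid genes had the highest median of the layer lists, 1.73 over 7 tested genes (0.31 without T1-3), with 0 called and every estimate above 0. Slc22a6, an organic anion transporter, was the largest at 2.70 (adjusted p = 0.339, edgeR) and came to 0.64 without T1-3, with 43.6 CPM (T1-3), 5.40 (T1-5), 3.00 (T1-1) and 1.01 (T1-4) and 0.428 to 3.81 in sham. Aldh1a2, which makes retinoic acid, was at 1.73 and at 0.01 without T1-3. Crabp2 was the lowest of that list at 0.14, or -0.28 without T1-3. Pial genes had 0 of 4 called and a median of 0.68 (0.28 without T1-3), led by the chemokine Cxcl12 at 1.82 (adjusted p = 0.292, edgeR; 0.87 without T1-3). Dural genes had 0 of 5 called and a median of 0.24, from -0.31 for Mgp to 0.79 for Fxyd5. Without T1-3 the dural median was -0.28, with Mgp at -1.18 and Fxyd5 at -0.15. The shared order of IUGR samples held for 6 of the 7 arachnoid, 3 of the 4 pial and 3 of the 5 dural genes. At an unadjusted p under 0.05, edgeR passed 1 of the 16 other fibroblast genes, 2 arachnoid, 1 pial and 0 dural genes, against 11.1% of all tested genes, and DESeq2's Wald test and limma-voom called 0 in each of these lists.

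Markers of other cell types were measured beside these, and their part in the results was not tested. Choroid plexus epithelium had an estimate below 0 in all 12 tested genes, with 4 called lower against 1.36% of all tested genes, a median log2 fold change of -3.11 and summed levels of those 12 of 46.8 to 360.2 CPM (IUGR) against 1014 to 1485 (sham). Without T1-3 the median was -3.44. All 12 had an unadjusted p under 0.05 (11.1% of all tested genes) and 10 did not overlap between the groups (5.06% with IUGR lower), and DESeq2 called 5 and limma-voom 10, against 3.1% and 2.39% of all tested genes. With 1 sample left out, edgeR called 0 to 4 of the 12, and 0 without T1-1, S3-4, S1-4 or S3-1. Cortical hem genes had estimates below 0 in all 9, with 7 called lower, again against 1.36%, and 7 each by DESeq2 and limma-voom. With 1 sample left out edgeR called 2, without T1-4, to 6, without T1-5. Their median was -1.96 (-2.73 without T1-3), and they summed to 50.1 to 112 CPM against 236 to 417 CPM. Microglia and macrophage markers had 0 of 7 called and a median of 0.30, or -0.01 without T1-3, and T1-3 was the highest of the 8 samples for 6 of them, and the perivascular macrophage gene Mrc1 was at 111 CPM (T1-3), 48.7 (T1-5), 23.2 (T1-1) and 4.04 (T1-4), with 15.0 to 24.2 in sham. Endothelial markers had 0 of 10 called with a median of 0.51 (0.37 without T1-3). Their sum was 427 CPM (T1-3) against 243 to 313 in the other IUGR samples and 235 to 348 in sham. T1-3 was the highest of the 8 samples for 7 of the 10 endothelial, 5 of the 8 mural and 6 of the 7 blood markers. Mural cells had 0 of 8 called with a median of 0.40 (0.28 without T1-3). Blood markers, mostly hemoglobins, had 0 of 7 called with a median of 0.41 (0.23 without T1-3) and summed to 648 CPM (T1-4) against 1752 to 2115 in the other IUGR samples and 1052 to 1622 in sham.

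Muscle, cartilage and bone markers were measured because these tissues lie near the brain. The 4 tested skeletal muscle genes had 0 called and a median of 1.03 (1.15 without T1-3). They summed to 32.01 CPM (T1-5), 20.2 (T1-1), 14.0 (T1-3) and 4.13 (T1-4), against 6.43 to 10.8 in sham. The 3 tested cartilage and bone genes had 0 called and a median of -0.35 (-0.58 without T1-3), with sums of 48.3 to 85.2 CPM (IUGR) against 88.3 to 144 (sham) that came mostly from Col2a1. The shared order of IUGR samples held for 0 and 1 of these genes. Among the other cell types it held for 5 of the 10 endothelial, 4 of the 7 blood, 5 of the 12 choroid plexus, 2 of the 8 mural, 2 of the 7 microglia and macrophage, 2 of the 9 cortical hem and 2 of the 6 Cajal-Retzius genes, against 8.65% of all tested genes. It held for 1 of the 5 hippocampal identity genes and for 0 neuronal and radial glia genes. Radial glia (8 genes, median -0.04), neurons (7, median 0.34) and hippocampal identity genes (5, median -0.40) also had 0 called, and the radial glia sum was 3322 CPM (T1-3) and 2913 (T1-4). Of the lists with 0 called, edgeR's unadjusted p was under 0.05 for 4 neuronal genes, 3 endothelial, 2 mural, 2 oligodendrocyte precursor, and 1 each of muscle, cartilage and bone, Cajal-Retzius and hippocampal identity genes, and for 0 of radial glia, blood, and microglia and macrophages, against 11.1% of all tested genes. In these lists DESeq2 and limma-voom called Syt1, of the neuronal list, and 0 others.

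**Figure D5:**
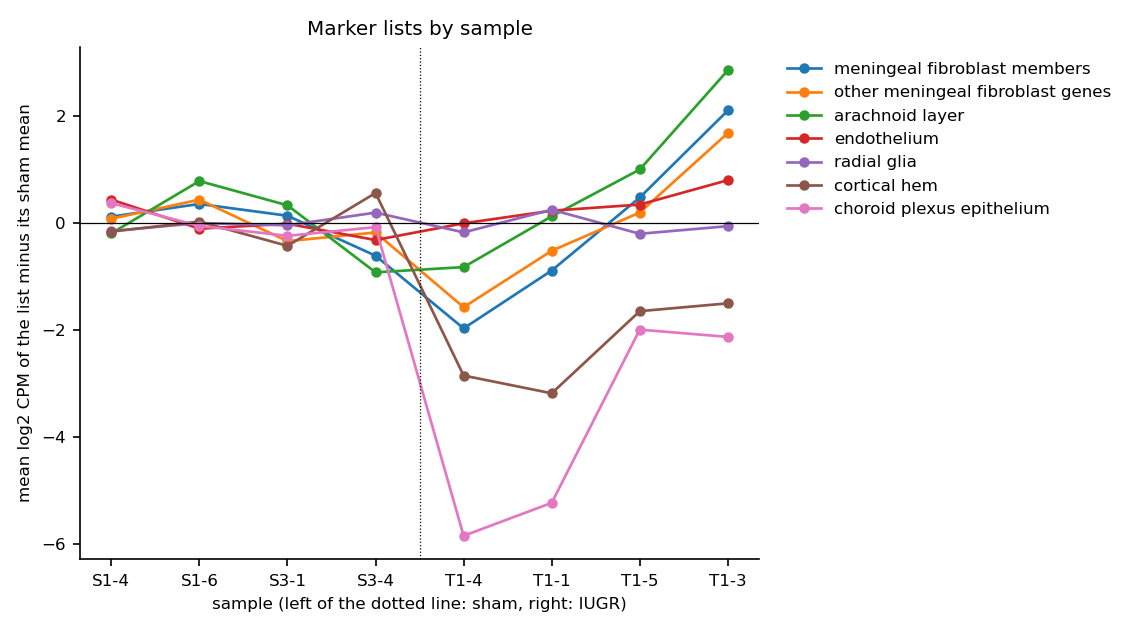
Mean log2 CPM of each list in each sample, relative to its own mean over the 4 sham samples, with IUGR samples placed as in the plot of the marker profiles. The meningeal and arachnoid lists run from below to above sham across the IUGR samples, radial glia stay near 0, and choroid plexus and cortical hem lie below sham in all 4 IUGR samples.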

How the data were processed

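Total RNA of 4 IUGR and 4 sham hippocampi was depleted of ribosomal RNA, made into stranded libraries and sequenced as single reads. The authors deposited read counts per gene, not normalized, with 1 column per sample, after alignment to GRCm38 (mm10). The submitters' processing notes name Novoalign 2.8; the counting program, annotation release and strand setting are not given in the sources used here. Samples were grouped by the labels.

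Identifiers were matched to GENCODE M21 (16124 of 16397 rows; 273 without a match were left out), 14564 were protein-coding, and those whose count averaged from 10 to under 50000 over the 8 samples were tested. This left out the choroid plexus gene Ttr. In R 4.3.3, edgeR 4.0.16 was run with TMM normalization and the quasi-likelihood test with group as the only term, with p values adjusted by Benjamini-Hochberg over the 13707 genes. Standard errors come from the F statistic. CPM use TMM-adjusted library sizes, and log2 CPM has a prior count of 2. Each pair within a group differed by more than counting noise (chi-square per degree of freedom 27.2 to 71.8), so no pair was treated as a single library deposited again; this does not show that samples are independent. The fits were tested on simulated data.

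The markers and lists were chosen with earlier results of these data known. Named genes are all 10 markers; their family members (some list genes are not reported here); called genes and the largest and lowest estimates of the layer and proteoglycan lists; and the 10 tested genes most correlated with the markers' mean. Ecm2, Optc, Aldh1a2, Mrc1 and Gjb6 were singled out after their values were seen. Alternatives were other normalizations, DESeq2 1.42.0, limma-voom (limma 3.58.1), other filters, all biotypes, the adjusted p alone, each sample left out, and sham samples of 1 prefix alone.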

Additional observations from a re-analysis of the deposited data

Results flagged for a closer look

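Each of the 10 markers was checked in each group of 4, on CPM without logs, which makes 20 checks. In 3 of them the highest sample stood apart from the others by more than Dixon's 95% critical value for the gap over the range. The sample was T1-3 in all 3. For normally distributed values, chance exceeds that critical value in about 1 of 20 groups. The markers share the same libraries and most varied together, so the 20 checks are not independent. The 3 flags therefore cannot be compared with that rate, and they describe 1 library. Whether these gaps stand out in log2 CPM was not tested. Foxc2 was at 9.34 CPM in T1-3 and between 0.337 and 1.29 CPM in the other IUGR samples. Slc6a13 was at 59.3 CPM in T1-3 and between 1.69 and 9.73 CPM in the others. Zic1 was at 911 CPM in T1-3 and between 465 and 504 CPM in the others, all 3 of which were still above every sham sample. What sets T1-3 apart was not tested.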

How the results depend on the processing

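With 1 sample left out in turn, the number of markers called was between 0 and 1, that of all tested genes called between 41, without S1-4, and 298, without T1-5 (200 with all 8 samples), and that of called genes over the related lists between 3 and 12 (12). The median log2 fold change of the markers lay between -0.32 and 1.38. The median SD of log2 CPM of the markers in IUGR lay between 1.11 and 2.08. Left-out samples moved Dcn between -0.31 and 1.67, Foxc2 between -0.93 and 1.33, Lum between -0.65 and 1.44, Pdgfra between -0.33 and 0.64, and Slc6a13 between -0.0073 and 2.16, the lowest value being that without T1-3 each time. Zic1 stayed between 0.93 and 1.34. With S1 sham samples alone, edgeR called 0 genes (1053 at an unadjusted p under 0.05), so 0 markers and 0 list genes; with S3 alone, 2 genes, 0 markers and 0 list genes (1338). These fits hold fewer samples. A count of 10 to 50000 in every sample left 8 markers, with 0 called (2 at an unadjusted p under 0.05), 81 genes and 4 list genes called. DESeq2 called 425 genes, and limma-voom 328 genes and 19 list genes. Under limma-voom Lum was at -0.40, Pdgfra at -0.0283, Dcn at 0.05, Foxc2 at 0.003 and the median over the markers at 0.03; the cause was not tested. Every other setting gave 1 marker called, Zic1, and kept the sign of each marker. No paired analysis was possible because the sample names give no number that links an IUGR to a sham sample. Foxc2 (4 counts) and Lum (7) in T1-4 are limited by depth.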
